A study of Mus musculus with 3 samples.

Results

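Zinc finger protein genes with Zfp symbols were examined for 5-hydroxymethylcytosine (5hmC) in mouse cerebellum. The members were the 10 kb bins of the deposited table on the autosomes that overlap a protein-coding gene whose symbol is Zfp followed by a number, with Zfpm genes left out. The rule used gene positions and no 5hmC value. It took 388 genes of 20661 autosomal protein-coding genes and 1624 of 239486 listed autosomal bins, and 1621 of these bins carried a level from every library. A gene counted as clustered when at least 3 Zfp genes lay within 500 kb, and as single otherwise. This put 225 genes (58.0%) in 35 clusters with 633 bins, and left 163 single genes with 988 bins with values.

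The study profiled genomic DNA of mouse cerebellum tissue in 3 libraries, 1 for each group, and its labels give no strain, age or number of animals. The first was DDD-seq of normal/control tissue and the second DDD-seq after chronic sleep deprivation. The third was ACE-seq, whose treatment field also reads normal/control. They are called the DDD control, the deprived library and the ACE library, and 3 values in a row follow this order. In DDD-seq, 5hmC is protected by glycosylation and the remaining cytosines are deaminated with the SsdAcat enzyme, so that cytosines still read as C are taken as 5hmC, whereas ACE-seq is another method that protects 5hmC from a deaminase. With 1 library for each group there are no replicates, so no difference between libraries was tested and every fold is a difference between those libraries. The depth behind the values is unknown. SD values below are spreads over bins or genes, not errors over animals.

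TET enzymes oxidise 5-methylcytosine to 5hmC, a mark that is abundant in neurons and is known to lie over the bodies of expressed genes. Many Zfp genes encode proteins that bind DNA through tandem zinc fingers. Those with a KRAB domain bring in the corepressor Trim28 and, with it, the histone methyltransferase Setdb1, and they are known for silencing retroelements and holding genomic imprints. KRAB zinc finger genes arose largely by tandem duplication, which is why many lie side by side and share sequence. Some other Zfp genes stand alone and encode conserved regulators of development, splicing or cell division. Genes counted as single here are not all of this kind, since the KRAB genes Zfp57 and Zfp932 are among them. The rule takes both kinds by symbol, and the number of fingers and the KRAB domain of each protein were not analysed here.

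The 4 promoters below belong to genes at both ends of the range of gene 5hmC level, the mean over a gene's bins. Zfp644 and Zfp207 stand alone and were among the 10 Zfp genes of at least 3 bins with the highest level. Zfp979 and Zfp987 lie in 2 neighbouring clusters and had the lowest levels among such genes. Each stretch runs 5′ to 3′ on the gene's strand from 250 bases before to 50 bases after the start in the RefSeq table of build GRCm38.p6, with CG dinucleotides in capitals. They lie at chr5:106696781-106697080 (minus strand), chr11:80383029-80383328 (plus), chr4:147642459-147642758 (minus) and chr4:146097062-146097361 (plus).
Zfp644: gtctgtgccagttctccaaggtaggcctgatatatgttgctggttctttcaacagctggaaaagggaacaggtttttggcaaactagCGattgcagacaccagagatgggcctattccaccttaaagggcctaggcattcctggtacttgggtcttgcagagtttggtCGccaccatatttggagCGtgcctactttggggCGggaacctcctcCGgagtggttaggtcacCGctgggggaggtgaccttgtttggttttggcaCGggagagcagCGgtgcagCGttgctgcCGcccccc
Zfp207: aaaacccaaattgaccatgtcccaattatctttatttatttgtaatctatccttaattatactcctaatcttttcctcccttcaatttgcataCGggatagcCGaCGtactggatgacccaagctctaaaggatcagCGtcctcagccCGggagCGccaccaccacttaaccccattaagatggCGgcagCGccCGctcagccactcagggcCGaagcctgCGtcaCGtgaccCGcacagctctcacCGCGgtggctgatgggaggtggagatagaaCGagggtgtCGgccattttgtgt
Zfp979: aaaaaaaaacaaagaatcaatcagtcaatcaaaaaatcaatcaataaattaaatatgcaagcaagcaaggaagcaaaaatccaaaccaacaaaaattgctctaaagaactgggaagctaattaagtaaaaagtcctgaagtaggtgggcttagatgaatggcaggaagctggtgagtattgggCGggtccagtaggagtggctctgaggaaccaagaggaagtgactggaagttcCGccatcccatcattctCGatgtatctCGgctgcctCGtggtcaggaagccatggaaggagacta
Zfp987: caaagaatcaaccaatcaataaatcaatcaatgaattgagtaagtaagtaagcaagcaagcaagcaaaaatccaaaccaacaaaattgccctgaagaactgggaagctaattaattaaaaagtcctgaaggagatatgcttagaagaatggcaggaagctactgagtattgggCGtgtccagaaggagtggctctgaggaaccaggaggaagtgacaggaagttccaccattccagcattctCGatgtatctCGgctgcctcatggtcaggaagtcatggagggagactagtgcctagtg
The single genes' promoters held 10 and 17 CG dinucleotides, and those of Zfp979 and Zfp987 held 5 and 3. Aligned end to end, the Zfp979 and Zfp987 promoters matched at 260 of 314 positions (82.8%), while every other pair among the 4 matched at 45.7% to 50.9%. Zfp979 and Zfp987 show how much sequence members of neighbouring clusters can share. The sources used here do not say how reads that fit more than 1 such copy were treated, so values of near-identical copies are uncertain.

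Promoters of 322 Zfp genes were found in that table, 195 clustered and 127 single. A promoter of a clustered gene held a median of 11 CG dinucleotides (quartiles 8 and 17), against 17 for single genes (quartiles 9 and 25.5) and 14 for the 16083 other protein-coding genes with a level. On either strand, the GC box GGGCGG was in 39.5% of clustered, 52.8% of single and 47.5% of the other genes' promoters. It was in 35.9% of all 27025 promoters of the table. CCAAT was more frequent in clustered genes, at 51.8% against 44.9% in single genes, 38.8% in other genes and 38.0% of all. TATAAA was in 4.6% of clustered and 8.7% of single genes' promoters, against 13.7% in other genes and 14.2% of all. These motifs can overlap one another, and a match is only a match of letters. Across genes, the CG count went with the level of the bin that holds the start with a Spearman rho of 0.04, 0.05 and 0.18 in clustered genes (n = 195) in the DDD control, deprived and ACE libraries. The rho was 0.06, 0.10 and 0.02 in single genes (n = 126) and 0.22, 0.22 and 0.23 in other genes (n = 16069). Genes in these relations share the libraries and, in part, bins, and genes are not independent replicates.

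The 5hmC level of a bin is the deposited fraction given in percent. Over Zfp gene bins the mean was 1.67% ± 0.97 (SD, n = 1621 bins) in the DDD control, with 1.63% ± 0.88 and 1.70% ± 2.61 in the deprived and ACE libraries. Bins of other genes averaged 1.76%, 1.76% and 1.71%, and bins without a protein-coding gene averaged 1.39%, 1.40% and 1.34%. Zfp gene bins therefore lay between both, close to other genes. The wide ACE-seq spread came with 1 bin over Zfp973 (chr2:176670001-176680000), listed at 100% there and at 0% in both DDD-seq libraries. Without it the ACE-seq mean of Zfp gene bins was 0.08 below that of other genic bins instead of 0.02.

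Clustered and single genes differed. Cluster bins averaged 1.36% ± 0.56 (SD, n = 633 bins), 1.34% ± 0.52 and 1.33% ± 0.57 in the DDD control, deprived and ACE libraries. Single-gene bins averaged 1.87% ± 1.12 (SD, n = 988 bins), 1.82% ± 1.01 and 1.93% ± 3.30, and the ACE-seq value was 1.83% ± 1.05 without the Zfp973 bin. The ranges of single bins overlapped widely, with quartiles of 1.0% and 1.63% in clusters and 1.22% and 2.19% in single genes in the DDD control. The difference of the means was -0.51, -0.48 and -0.61 percentage points.

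**Figure D1:**
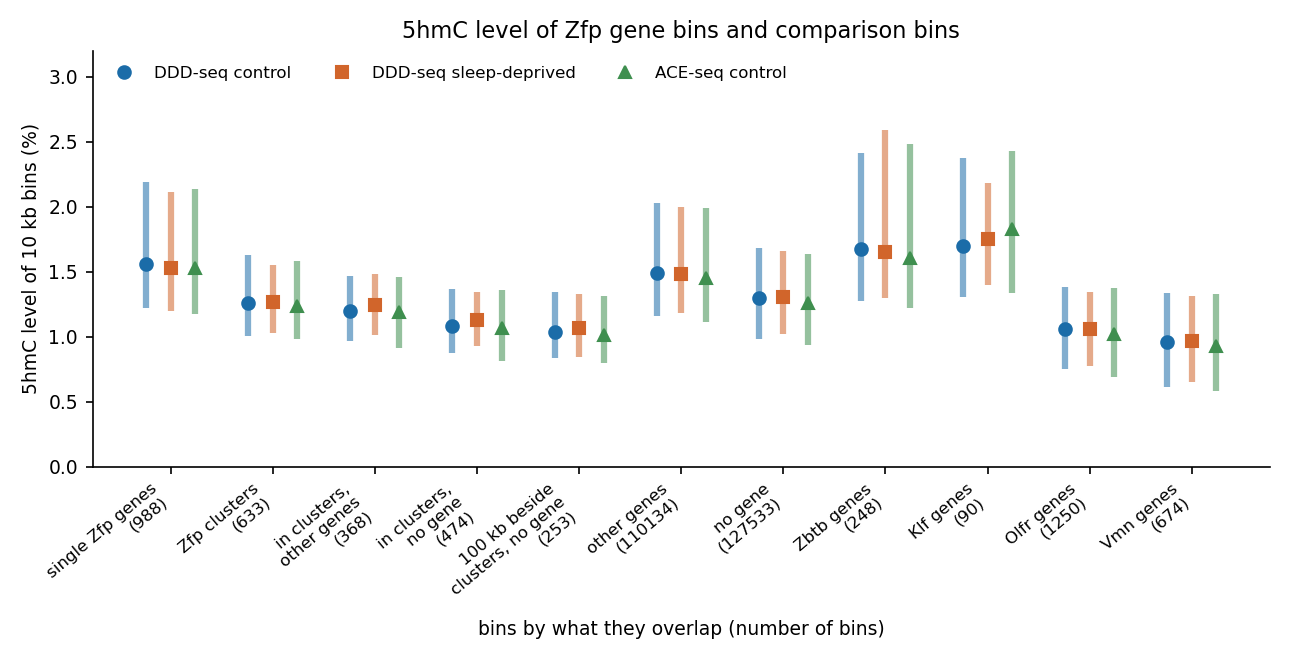
Median (symbol) and quartiles (bar) of the 5hmC level of 10 kb bins, in percent, by what the bins overlap and by library, with the number of bins in parentheses. Zfp cluster bins lie below single Zfp gene bins in each library (medians 1.26% against 1.56% in the DDD control) and above bins of the clusters that hold no gene (1.08%).

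The difference depended on gene length. Of the Zfp gene bins, 587 (36.2%) belong to 27 genes of 10 or more bins, of which 26 are single. When only genes of 2 to 5 bins entered, the cluster minus single difference shrank to -0.06, -0.05 and -0.40. The last, from the ACE library, was -0.11 without the Zfp973 bin. Genes of this length were no lower than others: Zfp gene bins minus other genic bins came to 0.01, 0.00045 and 0.16, and to 0.05 in the ACE library without that bin, against -0.09, -0.13 and -0.02 over all lengths.

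Gene levels, the mean over a gene's bins, show the same by length class. Clustered genes of 1 or 2 bins had a median of 1.27% in the DDD control (n = 96), against 1.37% for single genes (n = 50) and 1.21% for other genes of that length. At 3 or 4 bins the medians were 1.37% (n = 107), 1.40% (n = 67) and 1.32%. Short Zfp genes, in clusters or not, were thus at or slightly above other genes of their length. The longer classes parted. At 5 to 9 bins clustered genes had a median of 1.10% (n = 21), 1.16% and 1.11%. Single Zfp genes of 5 to 9 bins had 1.72% (n = 17), 1.68% and 1.54%, and other genes 1.45%, 1.44% and 1.41%. Single Zfp genes of 10 or more bins reached 1.89%, 1.86% and 1.83% (n = 26), against 1.65%, 1.66% and 1.62% for other genes that long. The 1 clustered gene of that length, Zfp978 with 28 bins, had 1.04%, 1.01% and 0.89%. Across genes the Spearman rho of length and level was 0.02 to 0.05 in clusters (n = 225), 0.28 to 0.37 for single genes (n = 160) and 0.41 to 0.45 for others. In other words, level went up with length in single and other genes and did not in clusters, where few genes are long.

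**Figure D2:**
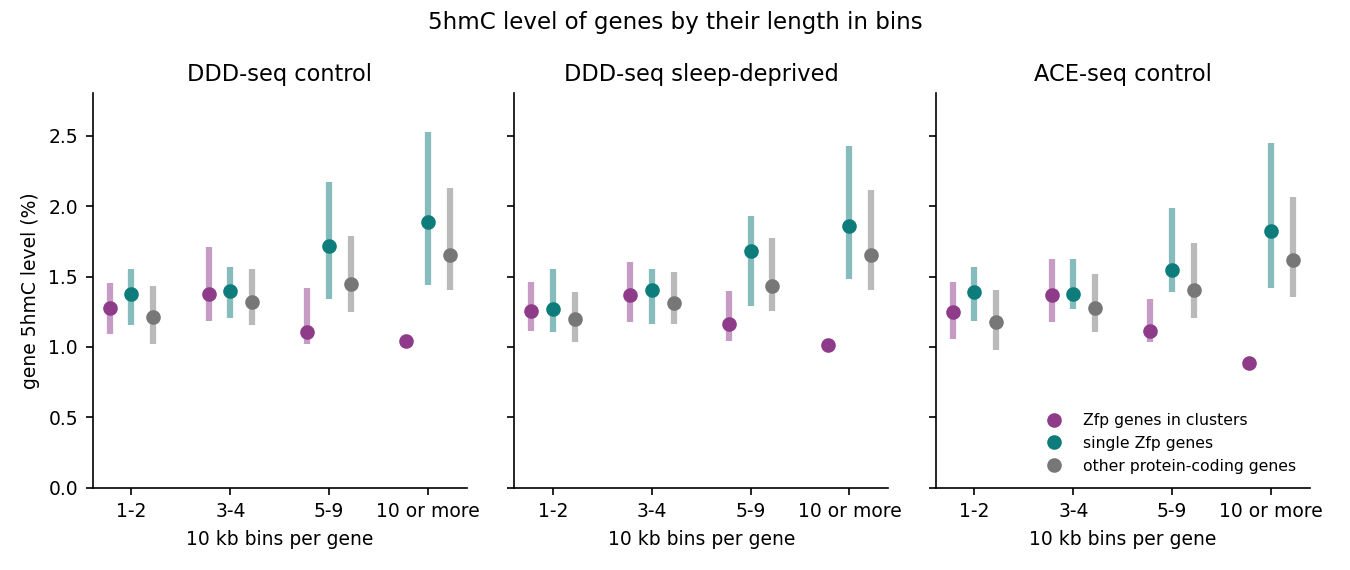
Median (point) and quartiles (bar) of the 5hmC level of genes, in percent, by the number of 10 kb bins a gene overlaps, for clustered Zfp genes, single Zfp genes and other protein-coding genes, with 1 panel for each library. Clustered genes of 5 to 9 bins lie at 1.10% in the DDD control, below single Zfp genes (1.72%) and other genes (1.45%) of that length.

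The clusters lie in surroundings of low 5hmC. Inside the cluster spans, bins without a protein-coding gene averaged 1.13%, 1.15% and 1.09% in the DDD control, deprived and ACE libraries (n = 474 bins). Gene-free bins within 100 kb of a cluster averaged 1.10%, 1.09% and 1.07% (n = 253). Both sets were below gene-free bins of the autosomes as a whole and below those within 100 kb of single Zfp genes, at 1.29%, 1.28% and 1.24% (n = 1432). Bins of other genes inside the spans averaged 1.28%, 1.30% and 1.24% (n = 368). Within the spans, then, the Zfp genes stood above the sequence between them. The olfactory and vomeronasal receptor families, which also lie in tandem arrays and serve sensory neurons of the nose, were lower still. Olfactory receptor bins averaged 1.10%, 1.10% and 1.07% (n = 1250) and vomeronasal receptor bins 1.02%, 1.04% and 1.03% (n = 674). Among other zinc finger families, Zbtb bins averaged 1.99%, 2.03% and 1.98% (n = 248) and Klf bins 2.0%, 1.98% and 2.01% (n = 90). Lower were Zfhx bins at 1.45%, 1.41% and 1.41% (n = 95). Egr bins had 1.24%, 1.28% and 1.17% (n = 6) and Zic bins 1.05%, 1.08% and 1.04% (n = 8). Zscan bins averaged 1.44%, 1.32% and 1.36% (n = 43) and Zkscan bins 1.40%, 1.41% and 1.33% (n = 30), near the Zfp clusters.

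Around the gene start the step was small. In clustered genes the bin holding the start had a median of 1.29%, 1.27% and 1.27%, and the bin before it 1.16%, 1.21% and 1.15% (n = 195). In single genes the start bin had 1.37%, 1.32% and 1.35% (n = 126) and the bin before it 1.15%, 1.23% and 1.13% (n = 125). Other genes went from 1.245%, 1.246% and 1.206% to 1.274%, 1.261% and 1.247%. Against all bins within 100 kb, 75 of 160 single genes (46.9%) were higher in all 3 libraries and 28 (17.5%) lower in all 3, and of 20111 other genes 26.8% and 31.9%. Among clustered genes, whose neighbouring bins often belong to other Zfp genes, these counts were 76 and 35 of 225 (33.8% and 15.6%). At 3 or more bins the shares higher were 36.4% of 129 clustered, 53.6% of 110 single and 37.8% of 10981 other genes. The shares lower were 14.0%, 17.3% and 30.2%. Of the 26 single genes of 10 or more bins, 20 were above their surroundings in all 3 libraries, with a median difference over the 26 of 0.44, 0.42 and 0.45 percentage points. Other genes of that length were above theirs in 59.2% of cases (1637 of 2763), with a median difference of 0.20, 0.19 and 0.20, and no test of the gap was possible.

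The 35 clusters held 3 to 24 Zfp genes (median 4) over spans of 58.8 to 1448 kb. Their mean levels ran from 1.02% to 2.19% in the DDD control, and from 1.02% to 1.66% and 0.93% to 1.82% in the others. In all 3 libraries, 30 of the 35 were below the mean of other genic bins. Long genes weigh more in that mean, and most short genes lay below it too. Other genes of 3 or 4 bins had a median of 1.32%, 1.31% and 1.28% and an upper quartile of 1.55%, 1.53% and 1.52%. No like count was made for stretches of other genes, here or against surroundings. Against the bins within 100 kb on either side, 17 were higher and 5 lower in all 3. The order of the clusters was much alike between libraries, with a Spearman rho of 0.82, 0.84 and 0.88 over the 35 clusters for the 3 pairs of libraries. The points share the libraries and the sequence of each cluster. The number of genes in a cluster and its level went together with a rho between -0.02 and 0.08.

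The lowest cluster was that from Zfp978 to Zfp933 (chr4:147124882-147849126, 9 genes, 58 bins) at 1.02%, 1.02% and 0.93%. Its own surroundings were at 1.18%, 1.15% and 1.11%. Zfp979 was its lowest gene at 0.51%, 0.74% and 0.29% (4 bins), and Zfp933 its highest at 1.56%, 1.72% and 1.50% (3 bins). Next came a neighbouring cluster, from Zfp987 to Zfp981 (chr4:146097312-146539395, 4 genes), at 1.06%, 1.03% and 0.93%. By the mean of the 3 libraries Zfp987 was lowest there, at 0.96%, 0.52% and 0.76%, and Zfp981 highest, at 1.29%, 1.24% and 1.11%. In single libraries Zfp992 was lower in the DDD control (0.85%) and Zfp600 higher in the deprived library (1.33%). The third was the cluster from Zfp808 to Zfp934 (chr13:62129857-62579321, 3 genes) at 1.03%, 1.05% and 0.99%, with Zfp808 at 0.99%, 1.07% and 0.85% and Zfp935 at 1.14%, 1.07% and 1.26%. All 3 were at or under 1.06% in each library.

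The highest cluster was the compact one from Zfp397 to Zfp24 (chr18:23952741-24020813, 3 genes, 7 bins) at 2.19%, 1.66% and 1.82%. Zfp397 led it at 2.64%, 2.20% and 2.47%. Zfp35, at 2.06%, 1.252% and 1.48%, was lowest by the mean of the 3 libraries, although Zfp24 was lower in the DDD control at 1.93%. The cluster from Zfp871 to Zfp414 (chr17:32765496-33631716, 13 genes) had 1.73%, 1.63% and 1.74%, close to its surroundings at 1.62%, 1.64% and 1.58%. By the mean of the 3 libraries its genes ran from Zfp472 (1.29%, 1.22% and 1.08%) to Zfp955a (2.42%, 2.02% and 3.18%), and the order differed within single libraries, where Zfp811, Zfp870 or Zfp871 took an end. The cluster from Zfp263 to Zfp597 (chr16:3744099-3884377, 3 genes) had 1.81%, 1.59% and 1.67% and stood far above its surroundings at 1.07%, 1.06% and 1.07%. Zfp597 had 2.27%, 2.09% and 2.12% there, and Zfp263 1.46%, 0.93% and 1.19%.

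The largest clusters were intermediate. The 24 genes from Zfp640 to Zfp273 (chr13:66670274-67827000) averaged 1.29%, 1.37% and 1.37% over 65 bins, above surroundings of 0.82%, 1.03% and 0.92%. The 19 genes from Zfp160 to Zfp946 (chr17:21008941-22456689) averaged 1.44%, 1.46% and 1.44%, with surroundings of 1.10%, 1.07% and 0.99%. The 15 genes from Zfp84 to Zfp146 (chr7:29768552-30169775) averaged 1.50%, 1.33% and 1.43%, above 1.20%, 1.18% and 1.13%. Lower than these was the cluster of 12 genes from Zfp180 to Zfp575 (chr7:24081877-24587840) at 1.09%, 1.21% and 1.20%, with surroundings of 1.11%, 1.10% and 0.93%. Chromosome 7 alone carries 93 Zfp genes, 78 of them clustered, followed by chromosome 17 with 46 (38 clustered) and chromosome 13 with 37 (27 clustered).

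**Figure D3:**
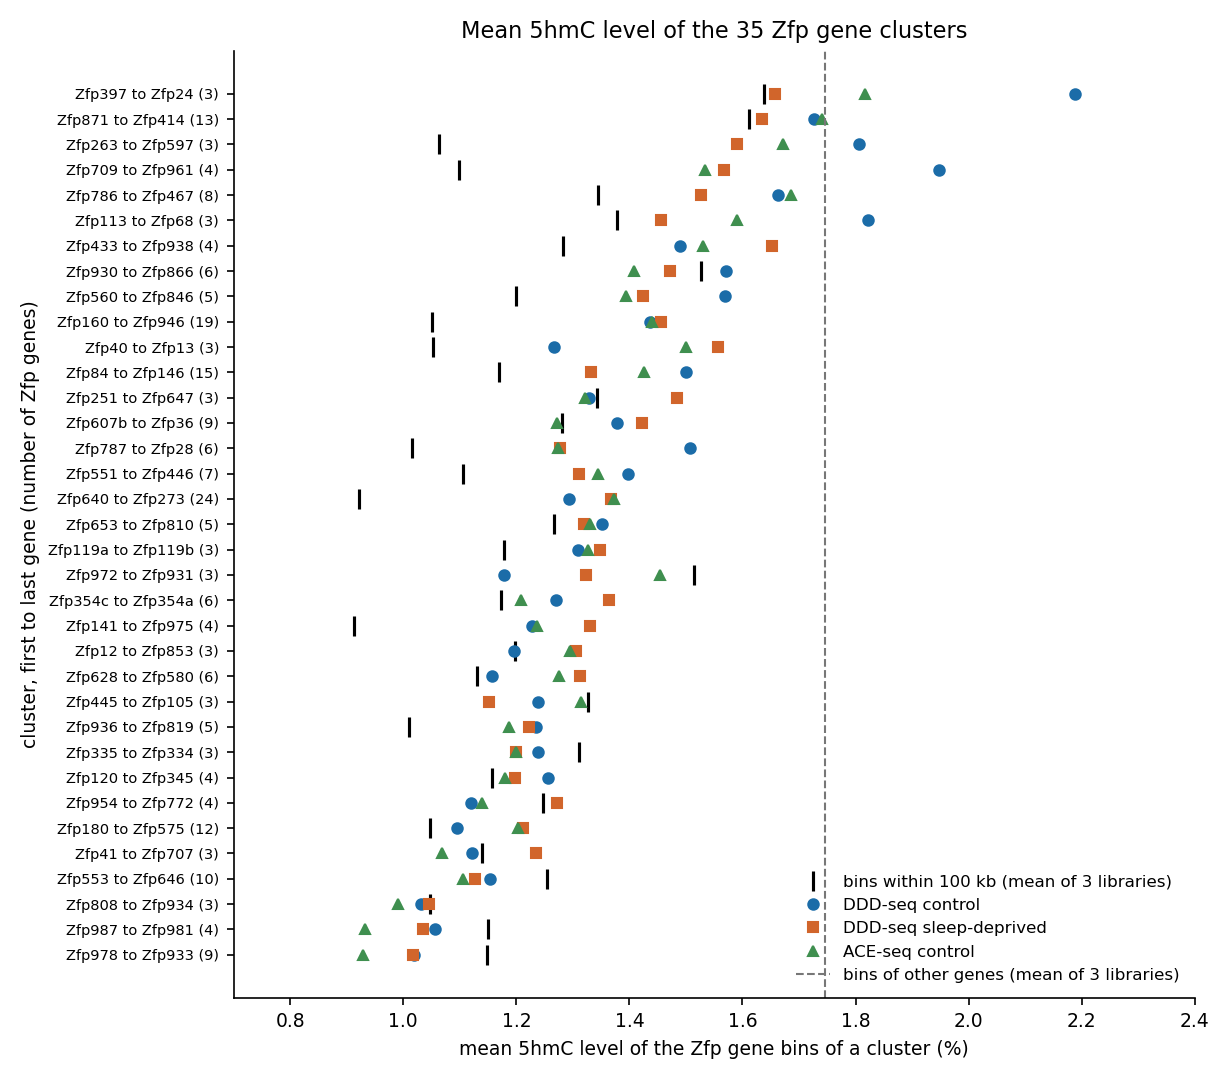
Mean 5hmC level of the Zfp gene bins of each of the 35 clusters, in percent, by library, ordered by the mean of the 3 libraries, with bins within 100 kb (black tick) and bins of other genes (dashed line). The cluster from Zfp978 to Zfp933 is lowest (1.02%, 1.02% and 0.93%) and that from Zfp397 to Zfp24 highest. In all 3 libraries 30 clusters lie below the mean of other genic bins. Most other genes of 3 or 4 bins lie below it too (upper quartile 1.55% in the DDD control).

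Of the 388 genes, 385 had a level and 239 had at least 3 bins, 129 clustered and 110 single. A gene was counted as high when its level lay in the top 10% of all genes of at least 3 bins in each of the 3 libraries, which held for 7.93% of those genes. It held for 11 of the 110 single Zfp genes (10.0%) and for 0 of the 129 clustered ones. The bottom 10% in all 3 libraries took 2.41% of all such genes, 11 clustered Zfp genes (8.53%) and 2 single ones (1.82%). The bounds were 2.30%, 2.29% and 2.26% for the top 10% and 1.08%, 1.10% and 1.04% for the bottom 10%. These shares were not split by length, and level went with length. The top 10% of other genes of 3 or 4 bins began at 1.93%, 1.87% and 1.88%, against 2.84%, 2.81% and 2.76% at 10 or more bins. Of the 129 clustered genes 107 had 3 or 4 bins, and the top 10% of these began at 1.94%, 1.83% and 1.97%, near other genes of that length.

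The 10 highest Zfp genes of at least 3 bins were all single. Zfp521, a nuclear factor of neural progenitors, led with 4.08% ± 1.21 (SD, n = 30 bins), 4.0% ± 1.0 and 3.92% ± 1.10, and its lowest bin was 1.99% to 2.04% in the 3 libraries. Zfp644, a partner of the histone methyltransferases Ehmt1 and Ehmt2, had 3.58%, 3.98% and 3.47% over 9 bins. Zfp385b, of the Zfp385 family, had 3.64%, 3.45% and 3.65% over 41 bins, with a highest bin of 8.01% in the DDD control. The related pair Zfp608 and Zfp609, cofactors in progenitor and lymphocyte development, stood at 3.42%, 3.41% and 3.57% (12 bins) and at 2.82%, 2.58% and 2.50% (14 bins). Zfp207, a spindle assembly protein, had 3.27%, 3.24% and 2.78% over 3 bins that ran from 1.07% to 5.49% in the DDD control. The remaining 4 were Zfp280d (3.40%, 3.15% and 2.70%), Zfp292 (3.26%, 3.07% and 2.86%), Zfp148 (3.06%, 2.71% and 3.23%) and the ubiquitin ligase gene Zfp91 (3.08%, 2.68% and 3.0%). Each of the 10 was above the bound of the top 10% in every library; they had been chosen by their mean over the libraries.

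The 10 lowest Zfp genes of at least 3 bins came mainly from chromosome 4, with Zfp979, Zfp987, Zfp980, Zfp990, Zfp992 and Zfp534. Zfp979 had 0.51% ± 0.67 (SD, n = 4 bins), 0.74% ± 0.72 and 0.29% ± 0.38, and 1 of its bins was at 0 in all 3 libraries. Zfp980, a single gene by the rule, had 0.63%, 0.86% and 1.14%. Zfp990, also single, had 0.58%, 1.246% and 0.85%, and the clustered Zfp992 had 0.85%, 0.95% and 0.95%. Zfp534 had 1.07%, 1.02% and 0.71%. On other chromosomes were Zfp977 (0.91%, 1.06% and 0.56%), Zfp735 (0.96%, 0.73% and 0.97%), Zfp960 (0.50%, 1.05% and 1.15%) and Zfp113 (1.03%, 0.70% and 1.09%). All 10 had 3 or 4 bins.

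Closely related genes could differ in level. Zfp804a, whose human counterpart is a schizophrenia risk gene, had 2.60%, 2.26% and 2.61% over 21 bins. Its relative Zfp804b, the longest member with 59 bins, had 1.28%, 1.46% and 1.41%, and its highest bin reached 3.06% in the DDD control against 6.70% for Zfp804a. In the Zfp385 family, Zfp385a had 1.20%, 1.09% and 1.38% (4 bins) and Zfp385c 1.22%, 1.17% and 1.19% (8 bins), both far below Zfp385b. Zfp385d was not analysed here. Along Zfp521 the level was up over the whole gene and fell off within a bin or so of its ends, and along Zfp385b it climbed from the left end of the gene to the right.

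**Figure D4:**
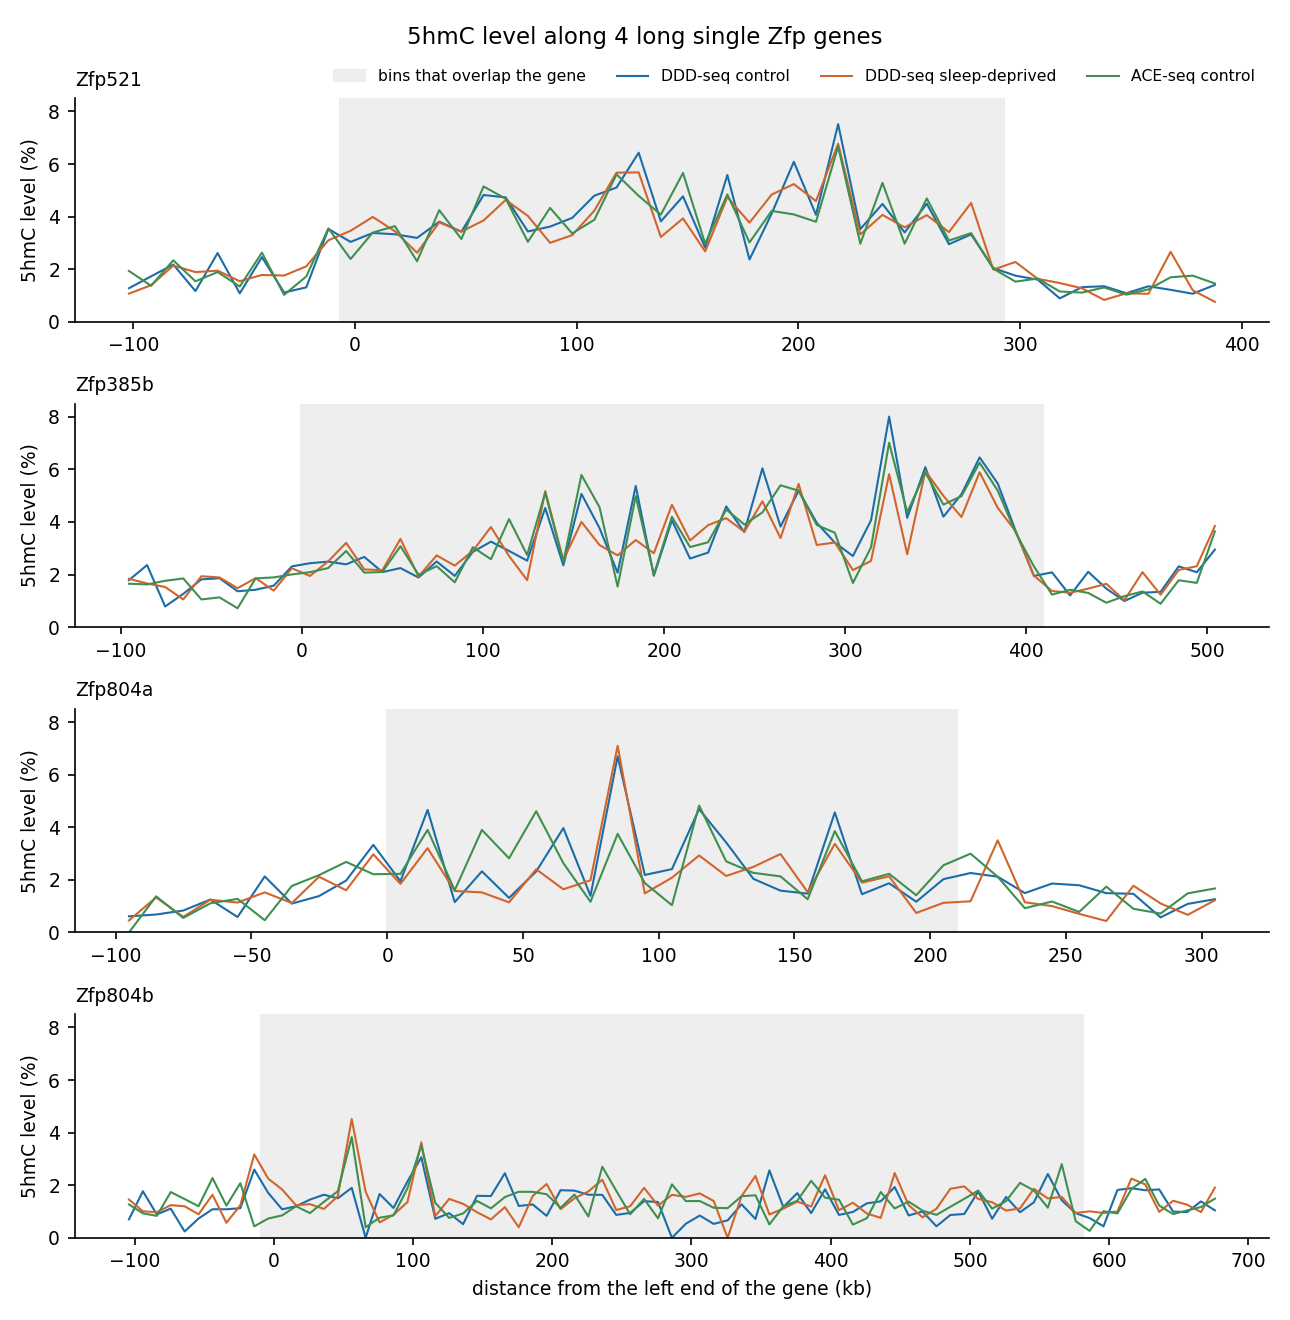
5hmC level of consecutive 10 kb bins, in percent, along Zfp521, Zfp385b, Zfp804a and Zfp804b, by distance from the left end of each gene in kb, with 100 kb on either side and the gene's bins shaded. Zfp521 stays at 1.99% or more in each bin of the gene and each library, Zfp385b reaches 8.01%, and Zfp804b stays low over its 59 bins apart from single peaks of up to 4.52%.

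Genes known in neural development or disease were mostly high for Zfp genes. The 13 members had a median of 1.90%, 1.79% and 1.82%, against 1.33%, 1.31% and 1.29% over all 20497 genes with a level, and 10 of 13 were above the median of all genes in each of the 3 libraries. Of all genes, 6763 of 20497 were. Zfp423, required for growth of the cerebellum, had 1.75% ± 0.36 (SD, n = 31 bins), 1.72% ± 0.44 and 1.69% ± 0.39. Zfp536, a repressor of neuronal differentiation, had 2.08%, 2.06% and 1.92% over 47 bins. Zfp462, a chromatin regulator of brain development, had 1.90%, 1.92% and 1.82%, and Zfp407 had 1.93%, 1.79% and 1.86%. Zfp365 had 1.50%, 1.42% and 1.74% and Zfp703 1.42%, 1.64% and 1.44%. Zfp335, a microcephaly gene and the list's 1 clustered member, had 1.19%, 1.18% and 1.37%, and Zfp503, in 1 bin, had 1.07%, 1.21% and 1.02%. Of the 13 genes, 8 overlap 10 or more bins, the length class in which single Zfp genes were highest.

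Widely expressed regulators were also high, with a median of 1.87%, 1.94% and 1.78% over 10 genes, of which 8 were above the all-gene median in each library. That held for 33.0% of all genes and 47.5% of single Zfp genes. Besides Zfp207 and Zfp91 they included the pluripotency factor Zfp281 (2.97%, 2.59% and 3.43%, 2 bins) and Zfp638, which silences unintegrated viral DNA (2.30%, 2.48% and 2.29%). Zfp131 had 2.16%, 2.41% and 2.0%. Zfp106 had 1.59%, 1.47% and 1.50%, the promoter-binding factor Zfp143 1.56%, 1.44% and 1.31%, Zfp384 1.45%, 1.33% and 1.57%, and Zfp217 1.40%, 1.31% and 1.14%. The clustered Zfp263 had 1.46%, 0.93% and 1.19% over 2 bins.

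KRAB genes known for imprinting or retroelement control sat near the ordinary level. The 8 members had a median of 1.28%, 1.19% and 1.36%, and 1 was above and 2 were below the all-gene median in all 3 libraries, against 33.0% and 30.7% of all genes. The list was drawn up with Zfp110, a partner of the neurotrophin receptor, as a member; the 7 others had a median of 1.30%, 1.15% and 1.37%, with the same counts. Zfp57, which keeps imprints after fertilisation, had 1.47%, 1.22% and 1.49% over 2 bins. Zfp445, its partner in that task, had 1.02%, 1.13% and 1.20% over 5 bins. Zfp568, which silences a placental Igf2 transcript, had 1.34%, 1.40% and 1.41%. Among those directed at retroelements, Zfp809 had 1.48%, 1.07% and 1.36%, Zfp932 1.30%, 1.0% and 1.57%, Zfp708 1.13%, 1.15% and 1.37%, and Zfp819 1.2%, 1.30% and 1.06%. Zfp110 had 1.17%, 1.39% and 0.97%. The mRNA decay factors of the family were alike: Zfp36 had 1.16%, 1.22% and 1.46%, Zfp36l1 1.55%, 1.24% and 1.08%, and Zfp36l2 1.21%, 1.23% and 0.99%, with only 1 or 2 bins each.

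A list drawn up around the corepressor pathway of KRAB proteins holds no Zfp genes, and not every member is itself such a corepressor. Its 18 genes had a median of 1.49%, 1.46% and 1.60%. Of them 10 were above and 1 below the all-gene median in all 3 libraries (6763 and 6291 of the 20497 genes in all). Trim28, the corepressor itself, had 1.20%, 1.14% and 1.48% (2 bins) and Setdb1, its histone methyltransferase, 1.17%, 1.50% and 1.19% (4 bins). The highest were Atf7ip, the stabilising partner of Setdb1, at 3.79%, 3.88% and 3.94% (11 bins), and the histone methyltransferase Nsd1 at 3.16%, 3.11% and 2.88% (12 bins). Trim28 and Setdb1 thus lay near the all-gene median, as did most of the listed KRAB genes.

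The deprived library and the DDD control differed little over Zfp gene bins as a group. The mean difference, deprived minus DDD control, was -0.041 percentage points over 1621 bins with an SD of 0.60, and 741 bins were higher and 872 lower. It was -0.021 over cluster bins and -0.053 over single-gene bins, against -0.003 over other genic bins. The share of Zfp gene bins higher in the deprived library was 45.7%, against 49.9% of other genic bins and 50.4% of all autosomal bins. The quartiles of the bin differences were -0.34 and 0.25, several times the mean shift. A gene of 3 or more bins was counted when the higher level of a pair was at least 25% above the lower. By this count 23 of 239 Zfp genes were higher in the deprived library (9.62%), against 5.01% of all such genes, and 28 were lower (11.7%), against 4.92%. Most of these Zfp genes are short, and short genes passed the count more often. Among all genes of 3 or 4 bins the shares were 8.33% higher and 8.39% lower, and among the 174 Zfp genes of that length 12.6% (22 genes) and 13.8% (24). For the 107 clustered genes of that length they were 13.1% and 17.8%, and for the 67 single ones 11.9% and 7.5%. Counts in both directions were thus of like size, and the shares among all genes of 3 or 4 bins lay between those of all genes and those of Zfp genes.

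Named by the size of the difference among genes of at least 5 bins, Zfp942 (1.85% to 1.46%), Zfp326 (2.31% to 1.93%) and Zfp26 (1.54% to 1.17%) were the most reduced in the deprived library. Zfp644 (3.58% to 3.98%), Zfp53 (1.14% to 1.51%) and Zfp600 (1.07% to 1.33%) were the most raised. The ACE library gave 1.95% for Zfp942, 2.13% for Zfp326, 1.34% for Zfp26, 3.47% for Zfp644, 1.39% for Zfp53 and 0.92% for Zfp600. Both comparisons share the DDD control. None of the 11 neural genes and none of the 8 widely expressed regulators of 3 or more bins differed by that much in either direction. Zfp809 and Zfp932 were lower by that much among 6 KRAB genes. Among 15 corepressor genes, Chaf1b, Morc3 and Setdb1 were higher and Ehmt2 and Suv39h2 lower. Of all genes of 3 or 4 bins, 8.33% were higher and 8.39% lower by that much in the deprived library. Over all genes of 3 or more bins the shares were 5.01% and 4.92%. The genes named for these lists have 3 or 4 bins, except Morc3 with 5, and most of the 11 neural genes have more. The lists were not matched for length, and no difference between them was tested.

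Between the assays, counts of genes were also of like size in both directions. ACE minus DDD control averaged 0.024 percentage points over Zfp gene bins and -0.038 without the Zfp973 bin, against -0.048 over other genic bins. Of the bins 756 were higher and 855 lower in the ACE library. The share higher was 46.6%, near the 46.2% of other genic bins and 46.4% of all autosomal bins. By the same count, 26 of 239 Zfp genes (10.9%) were higher in ACE-seq, against 4.74% of all genes, and 31 (13.0%) lower, against 8.71%. Among genes of 3 or 4 bins the shares over all genes were 8.04% higher and 13.5% lower, and those of Zfp genes 14.9% and 15.5%. Zfp280d (3.40% to 2.70%), Zfp292 (3.26% to 2.86%) and Zfp993 (1.37% to 1.03%) were the most reduced genes of at least 5 bins. The difference of Zfp993, -0.34 percentage points over 32 bins, rests on 1 bin at 11.1% in the DDD control and 0 in both other libraries. Without that bin, left out after its value was seen, Zfp993 had 1.05%, 1.12% and 1.06%, and ACE minus DDD control was 0.0064. With the bin it is also 1 of the 31 lower genes here and of the 28 in the deprived library, where its difference went from -0.28 to 0.071 without it. Zfp53, Zfp445 (1.02% to 1.20%) and Zfp148 (3.06% to 3.23%) were the most raised. Among shorter genes Zfp97 stood out, at 1.40%, 1.57% and 3.23% over 3 bins, which was noticed after its values were seen. A bin among these read 0.71%, 0% and 4.10%, and the depth behind it is unknown.

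Single genes kept their order between libraries better than clustered ones. Over genes of at least 3 bins the Spearman rho of the level in pairs of libraries was 0.78 to 0.84 for single genes (n = 110), 0.60 to 0.66 for clustered genes (n = 129) and 0.83 to 0.85 for other genes (n = 10982). Levels of clustered genes rest on fewer bins: 107 of the 129 had 3 or 4 bins, against 67 of the 110 single genes. The rho was not computed by length class. Clustered genes also spanned a narrower range, from 0.51% to 2.42% in the DDD control, than single genes, from 0.50% to 4.08%. Over bins, the rho against the DDD control was 0.46 and 0.43 in clusters and 0.73 and 0.69 in single genes, for the sleep-deprived and ACE libraries. Genes and bins share the libraries, their unknown depth and their base composition.

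**Figure D5:**
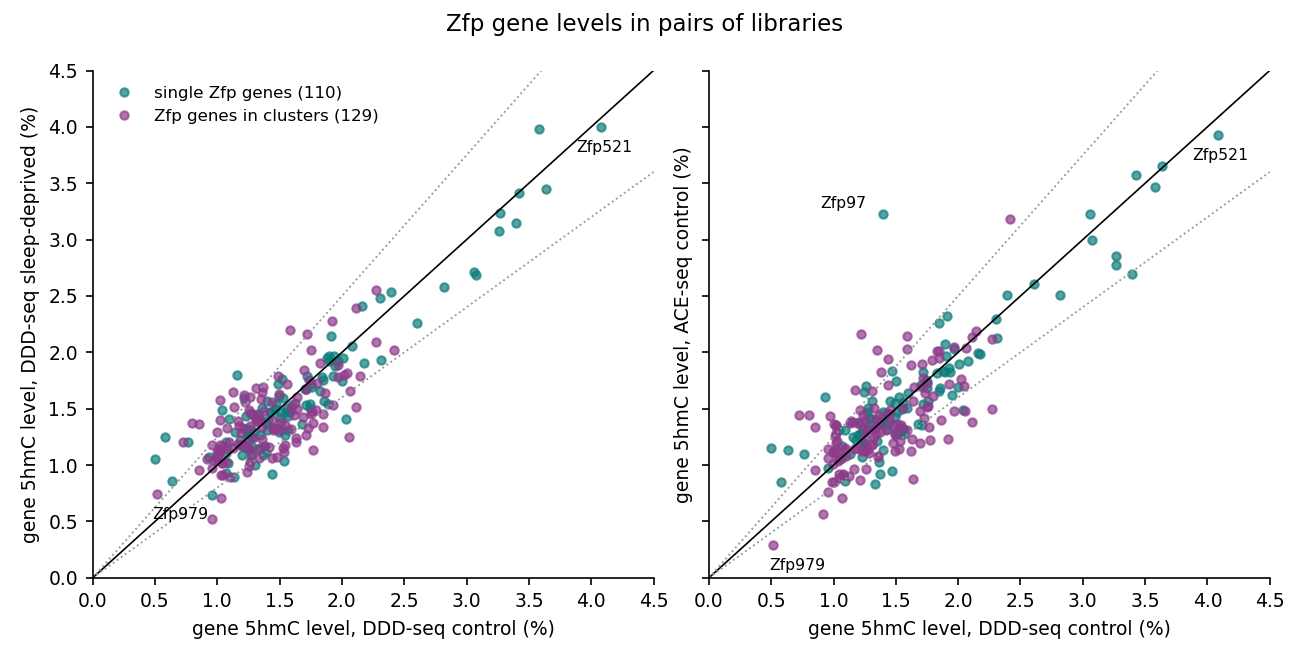
Level of 239 Zfp genes of at least 3 bins in the DDD control (x axis, percent) against the deprived library (left) and the ACE library (right), for single and clustered genes, with the line of equal levels and dotted lines where one level is 25% above the other. Single genes such as Zfp521 extend to 4.08%, clustered genes stay at or below 2.42% in the DDD control, and Zfp97 lies apart in ACE-seq at 3.23%.

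Zeros and gaps gathered in a few genes. Cluster bins held 5, 3 and 6 zeros of 633 in the DDD control, deprived and ACE libraries, and single-gene bins 11, 11 and 7 of 988. Other genic bins were at 0 in 0.32%, 0.20% and 0.35% of cases, and Zfp gene bins in 0.99%, 0.86% and 0.80%. In all 3 libraries 5 Zfp gene bins were at 0, over Zfp965, Zfp973, Zfp993, Zfp978 and Zfp979. A further 22 bin positions overlapped by Zfp genes are absent from the table, 15 of them in Zfp993 and the rest being all bins of Zfp966, Zfp967 and Zfp968. Zfp993 also held a bin at 11.1% in the DDD control and 0 in both other libraries. Since the table gives no coverage, a 0 here may rest on few reads, and which bins do so was not tested.

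Levels of the genes on either side of the boundary of the cluster rule overlapped. The last genes inside were Zfp334, Zfp335 and Zfp663, 3 genes within 496.4 kb, with 1.22%, 1.19% and 1.33% in the DDD control. Just outside were Zfp945 (505.9 kb, 1.47%), Zfp980 (528.1 kb, 0.63%) and Zfp993 (542.4 kb, 1.37%). Zfp980 and Zfp993 are thus single by the rule by a small margin.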

How the data were processed

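The deposited table gives, per the file headers, a fraction for each library and bin of 10 kb, which was multiplied by 100 and is called the 5hmC level in percent. The sources used here do not say how the authors averaged it, over which cytosines, or under which filter on coverage, and the word "all" in the names of the DDD-seq columns leaves unclear whether runs were pooled. The submitters' processing notes list Bismark, Trimmomatic and FastQC and name hg19, a human build, whereas the bins end 1.33 to 203.1 kb after the last gene of each mouse autosome in GRCm38.p6 and were taken as GRCm38. Per the labels' protocols the ACE-seq library has the same SsdAcat text as the others, so its own deamination step is not known.

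Bins were joined to RefSeq gene spans, and a bin that met both kinds of Zfp gene counted as clustered (3 bins). A cluster is any stretch of up to 500 kb that holds 3 or more Zfp genes, with overlapping stretches merged. A gene level is the mean over its bins, shared bins included (130 Zfp gene bins also overlap another gene and 54 overlap more than 1 Zfp gene). Named genes were the 10 highest and 10 lowest of at least 3 bins by the mean of the 3 libraries, the 3 largest differences each way among genes of at least 5 bins, the 3 highest, 3 lowest and 5 largest clusters, and all members of the lists. Promoters were printed for the highest and lowest genes whose start in the promoter table lies within 50 bases of the gene's edge. With 1 library for each group no test was possible; the calculations were checked on simulated data. The members, lists and comparisons were chosen with earlier results of these data known. Python 3.11.15, pandas 2.3.3, numpy 2.4.6, scipy 1.17.1, matplotlib 3.10.9 and Biopython (global alignment of promoters) were used.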

Additional observations from a re-analysis of the deposited data

How the results depend on the processing

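Of the values recomputed, the level of Zfp gene bins in the 3 libraries kept within 1.5 times under each alternative, and clusters stayed below single genes in every one, including other cluster windows and leaving out each cluster in turn. The size of that gap varied, and the sign of the small differences from other genic bins and between the assays did not hold. Values below are percentage points in the order DDD control, deprived, ACE. The cluster minus single difference was -0.295, -0.262 and -0.292 for medians over bins, and -0.202 and -0.182 (DDD control and deprived) where each gene weighed the same. It was -0.0556, -0.0452 and -0.404 for genes of 2 to 5 bins, -0.0645, -0.0539 and -0.109 for these without the Zfp973 bin, and -0.205, -0.192 and -0.222 for genes of up to 9 bins without that bin. The last pair of settings, like leaving out that bin alone, was chosen after seeing the data. Zfp gene bins minus other genic bins came to 0.0149, 0.000454 and 0.161 for genes of 2 to 5 bins, 0.0252, 0.00363 and 0.049 for these without the Zfp973 bin, and 0.0148, -0.00303 and 0.166 where each gene weighed the same. For genes of up to 9 bins without that bin it was -0.0402 and -0.0571 (DDD control and deprived). With medians it was -0.0525 (DDD control) and -0.0438 (ACE), and with symbols of Zfp and digits alone -0.146 and -0.0711. In the ACE library it was -0.0707 without bins at 0, 0.0116 where a gene had to cover 5000 bp of a bin, 0.00746 without bins shared with another gene and -0.079 without the Zfp973 bin. ACE minus DDD control was -0.0344 without bins at 0, -0.0358 as a median and -0.0379 without the Zfp973 bin, but 0.0491 with genes covering 5000 bp, 0.109 where each gene weighed the same and 0.0854 over bins with a value in both. The last took in a Zfp965 bin listed at 100% in the ACE library and 0% in the DDD control. Without the Zfp993 bin at 11.1% in the DDD control, also chosen after seeing the data, the differences of that gene turned to 0.0711 (deprived minus DDD control) and 0.00638 (ACE minus DDD control). The share of Zfp gene bins at 0 was 0.309% when all 3 libraries had to be at 0. No paired analysis was possible because each group has 1 library. Depth is unknown, so how far it limits single bins cannot be given.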

Other observations

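Some zinc finger genes outside the rule gave values of interest. Zfpm2, a cofactor of GATA factors in heart and brain that was left out by its symbol, had 5.04% ± 1.77 (SD, n = 46 bins) in the DDD control, 5.06% ± 1.81 in the deprived library and 5.04% ± 1.79 in the ACE library, above each of the 385 Zfp genes in the first 2. Its relative Zfpm1 had 1.48%, 1.45% and 1.12% over 6 bins. The 9 X-linked protein-coding Zfp genes had a median of 1.53%, 1.26% and 1.40%, and the 17 autosomal Zfp genes annotated as noncoding or pseudogenes 1.33%, 1.29% and 1.28%, close to clustered protein-coding genes. Within the cluster spans, 174 genes with other symbols had a median of 1.18%, 1.20% and 1.16%, and 33 of them with Gm or Rik symbols 1.11%, 1.3% and 1.16%.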
